A study of Mus musculus with 6 samples.

Results

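The cytosolic chaperonin CCT (also called TRiC) is represented in these data by 5 subunit genes, Tcp1, Cct3, Cct5, Cct7 and Cct8, out of 1018 genes in the deposited expression table. The members were taken by symbol, and they are 5 of 9 listed genes that encode subunits of the CCT ring. The other ring genes listed, Cct2, Cct4, Cct6a and Cct6b, have no value in that table, which holds only genes selected for a difference between the groups, and are not analysed here. The samples were CD8+ T cells binding an M45 tetramer, which marks T cells specific for a peptide of murine cytomegalovirus (MCMV), sorted from the spleen 7 days after MCMV infection and sequenced as 3 WT and 3 JHT libraries. JHT mice carry a germline deletion of the J segments of the antibody heavy chain genes and therefore have no B cells. The WT controls were littermates with intact B cells, all mice were adults of both sexes on the C57BL/6J background, and all were infected. The genotype of the sorted T cells themselves thus also differed, and an effect within the T cell cannot be told apart from an effect of the missing B cells.

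CCT is a barrel of stacked rings in the cytosol, and each ring position is taken by the product of a different gene. An unfolded protein enters the cavity, the lid closes as the subunits hydrolyse ATP, and the protein leaves folded. Actin and tubulin depend on CCT, as do several WD-repeat proteins such as the cell cycle regulator Cdc20. T cells that divide after antigen contact enlarge and make new cytoskeleton, and chaperonin subunits are among the proteins such cells make more of. Tcp1 encodes the alpha subunit, Cct3 the gamma, Cct5 the epsilon, Cct7 the eta and Cct8 the theta subunit.

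All 1018 genes of the table share 1 feature that governs how the values can be read. Recomputing a two-sided equal-variance test from the 6 values of each gene gave an unadjusted p of at most 0.05 for every gene, and the smallest fold between group means in either direction was 2.0005. The table is thus a selection of genes by the same WT and JHT values that are compared here, and a subunit gene could be in it only if its groups differed. The direction was not fixed by that selection, but 983 of the genes (96.6%) were higher in JHT mice and 35 were lower. Library WT-1 stood apart from WT-2 and WT-3, since the median gene had 370 recovered reads in WT-1 against 670.5 and 623.5, and between 1389.5 and 1991 among the JHT libraries. None of the markers listed for CD8 T cells (8 genes), B cells (5), myeloid cells (5), erythroid cells (5), NK cells (2) or CD4 T cells (2) was in the table, so the labelled cell type could not be checked and the part of other cells in any result was not tested. In a bulk sample, fewer cells of a type and less RNA per cell cannot be told apart.

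The 5 genes lie on different chromosomes, so they do not share a locus (GRCm38, GENCODE release M21). Cct3 spans chr3:88297116-88321767 on the plus strand and Cct5 spans chr15:31590800-31601804 on the minus strand. Cct7 spans chr6:85451514-85468475 on the plus strand, Cct8 spans chr16:87483326-87495873 on the minus strand and Tcp1 spans chr17:12915701-12925067 on the plus strand. The windows of 200 bases upstream of their RefSeq starts (GRCm38.p6) are shown as a description of these genes. Whether their letters bear on the values was not tested. Each is written 5′ to 3′ on the strand of the gene, without bases that GENCODE annotates as UTR, and capitals mark the searched motifs. Cct3 is shown for chr3:88297000-88297115 (+), Cct5 for chr15:31601847-31602046 (-), Cct7 for chr6:85451305-85451504 (+) and Cct8 for chr16:87495874-87496069 (-).
Cct3: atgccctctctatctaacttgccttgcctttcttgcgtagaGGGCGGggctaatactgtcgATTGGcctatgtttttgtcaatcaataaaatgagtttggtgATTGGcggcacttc
Cct5: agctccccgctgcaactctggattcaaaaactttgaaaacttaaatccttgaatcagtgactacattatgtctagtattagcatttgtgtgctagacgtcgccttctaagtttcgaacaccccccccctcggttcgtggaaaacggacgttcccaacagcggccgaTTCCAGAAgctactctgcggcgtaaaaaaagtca
Cct7: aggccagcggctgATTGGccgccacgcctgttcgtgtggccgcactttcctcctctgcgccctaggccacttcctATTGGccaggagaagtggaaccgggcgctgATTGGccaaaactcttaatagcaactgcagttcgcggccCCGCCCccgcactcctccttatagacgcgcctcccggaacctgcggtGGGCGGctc
Cct8: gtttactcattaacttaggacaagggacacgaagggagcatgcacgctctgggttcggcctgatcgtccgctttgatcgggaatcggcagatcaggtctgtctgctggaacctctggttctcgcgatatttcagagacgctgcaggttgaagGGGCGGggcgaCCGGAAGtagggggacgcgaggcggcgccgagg
The window of Tcp1, chr17:12916129-12916328 (+), is covered by annotated UTR bases and is not printed. It also lies inside the GENCODE span of Tcp1 given above, so it is upstream of the RefSeq start only.

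The 5 windows were rich in CpG. They held 13 CpG dinucleotides in Cct3, 12 in Cct5, 17 in Cct7, 18 in Cct8 and 15 in Tcp1, against a median of 5 over 32851 RefSeq promoters of the same length. Their GC content was 55%, 47%, 64.5%, 60% and 60.5% in the same order, against a median of 53%. Matches were searched on both strands. The GC box letters GGGCGG, the binding letters of Sp1-type factors, occurred in Cct3, Cct7, Cct8 and Tcp1, and in 31% of all promoters. The CCAAT letters, which the NF-Y complex binds, occurred in Cct3 (2 matches), Cct7 (3) and Tcp1 (1), and in 29.3% of all promoters. The ETS-type letters CCGGAAG occurred only in Cct8 of the 5 genes, 37 to 31 bases upstream of the start, and in 6.29% of all promoters.

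Letters of heat shock elements, which the heat shock factor binds, were looked for in both half-site arrangements. TTCNNGAA occurred only in Cct5 of the 5 genes, as TTCCAGAA from 34 to 27 bases upstream, and in 5.72% of all promoters. GAANNTTC was in none of the 5 windows and in 5.36% of all promoters, and the E-box letters CACGTG, bound by MYC and related factors, were in none of the 5 and in 5.26%. RefSeq gives Cct5 2 starts, and only the window of the more upstream one was searched and printed. None of the searched motifs was held by all 5 windows. These matches describe the letters in the windows only.

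All 5 CCT subunit genes had higher values in the cells of JHT mice, with folds between 2.87 (Tcp1) and 3.60 (Cct7) in the group means. In each of the 5 genes the lowest JHT value was above the highest WT value, as it was for 96.6% of the table, so the count itself repeats the selection. Values are the deposited expression values, taken here as scaled for gene length and library. Whether they are RPKM or TPM is not given in the sources used here.

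Cct7, the eta subunit, showed the highest fold. Its values were 22.5, 57.2 and 48.9 among the WT libraries, in order of number, and 121.9, 120.8 and 220.2 among the JHT libraries. WT-1 was the lowest library and JHT-3 the highest, while JHT-1 and JHT-2 were nearly equal. The mean rose from 42.9 ± 18.1 (SD, n = 3) to 154.3 ± 57.1 (SD, n = 3), and the lowest JHT value was 2.11 times the highest WT value. The limma log2 change was 1.87 ± 0.39 (SE; 95% interval 1.10 to 2.64; adjusted p = 1.28e-05).

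Cct5, the epsilon subunit, had values of 64.8, 86.8 and 77.6 among the WT libraries and 161.7, 212.4 and 345.5 among the JHT libraries. Its WT libraries were the closest together of the 5 genes, with a highest value 1.34 times the lowest, and its JHT libraries the farthest apart, at 2.14 times. The mean rose from 76.4 ± 11.0 to 239.9 ± 94.9 (SD, n = 3 each), which is 3.14-fold. The lowest JHT value was 1.86 times the highest WT value, and the limma log2 change was 1.58 ± 0.38 (SE; 95% interval 0.82 to 2.33; adjusted p = 0.000112).

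Cct3, the gamma subunit, was the least abundant of the 5 genes in every library. Its values were 13.5, 41.1 and 27.4 among the WT libraries and 65.4, 73.5 and 114.5 among the JHT libraries. The WT libraries were spread widest here, with WT-2 at 3.04 times WT-1, and the gap between the groups was the narrowest of the 5, since the lowest JHT value was 1.59 times the highest WT value. The mean rose 3.09-fold, from 27.3 ± 13.8 to 84.5 ± 26.3 (SD, n = 3 each), with a limma log2 change of 1.68 ± 0.40 (SE; 95% interval 0.90 to 2.46; adjusted p = 7.79e-05).

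Cct8, the theta subunit, had the highest mean of the 5 genes in both groups. Its values were 65.1, 86.6 and 101.0 among the WT libraries and 174.7, 226.0 and 356.6 among the JHT libraries. Every JHT library lay above every WT library, by a factor of at least 1.73. The mean rose 3.00-fold, from 84.2 ± 18.1 to 252.4 ± 93.8 (SD, n = 3 each), with a limma log2 change of 1.53 ± 0.38 (SE; 95% interval 0.78 to 2.28; adjusted p = 0.000158).

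Tcp1, the alpha subunit, had values of 30.4, 58.9 and 54.3 among the WT libraries and 110.9, 106.6 and 194.4 among the JHT libraries. It had the smallest fold of the 5, and again WT-1 was lowest and JHT-3 highest. The mean rose 2.87-fold, from 47.9 ± 15.3 to 137.3 ± 49.5 (SD, n = 3 each), and the lowest JHT value was 1.81 times the highest WT value. The limma log2 change was 1.50 ± 0.39 (SE; 95% interval 0.73 to 2.27; adjusted p = 0.000285).

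**Figure D1:**
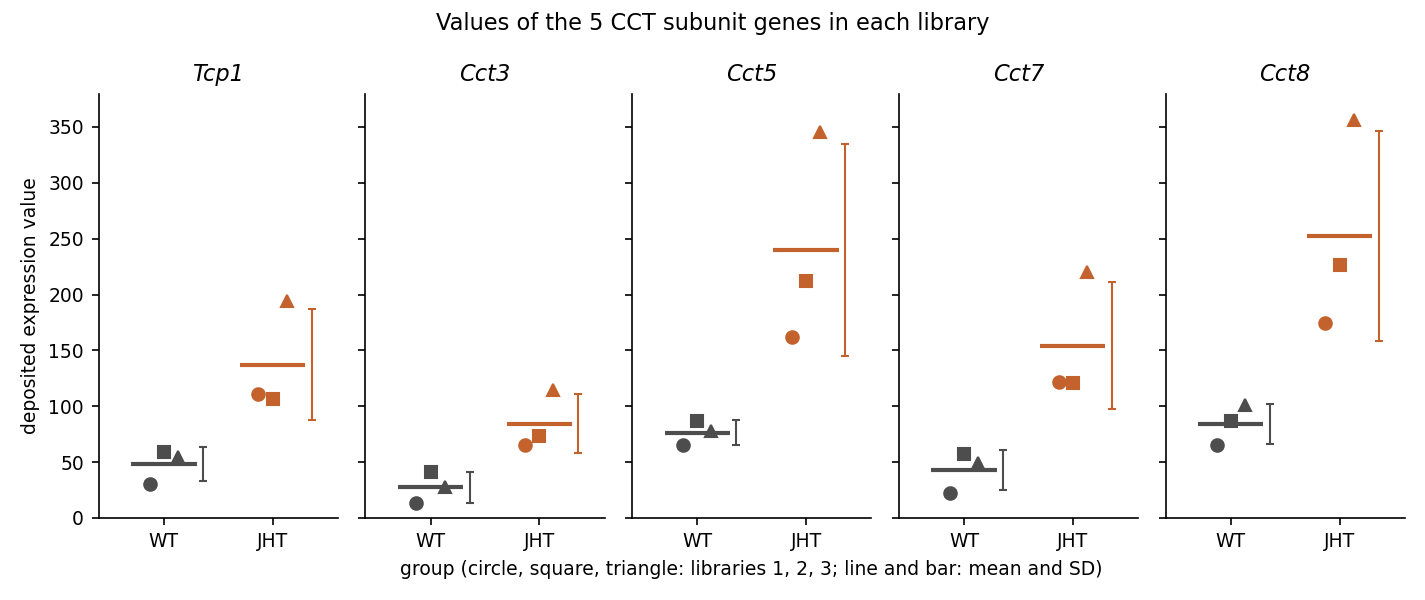
Deposited expression value (y axis, linear from 0) of the 5 CCT subunit genes in the 3 WT and 3 JHT libraries, with circle, square and triangle for libraries 1, 2 and 3, a line at the group mean and a bar of 1 SD to each side. In every panel all 3 JHT points lie above all 3 WT points, and the JHT-3 triangle is the highest, reaching 356.6 in Cct8 and 345.5 in Cct5.

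The precision of these tests is set by the libraries and by the selection, not by the reads. The widest 95% Poisson interval of a member's read number ran from -8.16% to 8.69% of the value, for the 553 recovered reads of Cct3 in WT-1. Intervals of this kind cover counting error only. Limma found no evidence that the spread differed between genes of like level (its prior degrees of freedom were infinite), so the SE of each gene comes from the trend shared by the table and not from its own 3 against 3 values. Because the genes were selected on these libraries, the p-values are too small as evidence for a single gene. The exact two-sided permutation test gave p = 0.1 for each of the 5 genes, which is the smallest it can give with 3 against 3 libraries.

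The size of the change in the 5 genes was close to that of the table. Their median fold was 3.09, against 2.93 over the 983 higher genes, and their median log2 change was 1.58 against 1.48. Among those higher genes Cct7 ranked 269th by fold, Cct5 398th, Cct3 427th, Cct8 472nd and Tcp1 525th. What the 5 genes shared more visibly was abundance, with ranks by mean value of 76 (Cct8), 81 (Cct5), 137 (Cct7), 141 (Tcp1) and 223 (Cct3) among the 1018 genes.

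Whether the subunit genes rose beyond the other genes of the table was asked by setting the median of the table equal in the 6 libraries. This removes a shift of 1.44 on the log2 scale and takes away a shared rise by construction, whatever its source. All 5 genes then kept a value above 0, and none passed the test, at a background of 2.06% of the table called higher. The remaining log2 change was 0.43 for Cct7 (95% interval -0.10 to 0.96, limma adjusted p = 0.696) and 0.24 for Cct3 (-0.32 to 0.80, adjusted p = 0.819). It was 0.14 for Cct5 (-0.35 to 0.62, adjusted p = 0.885), 0.09 for Cct8 (-0.39 to 0.57, adjusted p = 0.911) and 0.06 for Tcp1 (-0.45 to 0.57, adjusted p = 0.950). The median over the 5 genes was 0.14, against 0.04 over the higher genes, of which 543 kept a value above 0 and 440 went below it. A rise particular to the subunit genes was therefore not detectable, and the interval of Cct7 still allowed one of up to 0.96.

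**Figure D2:**
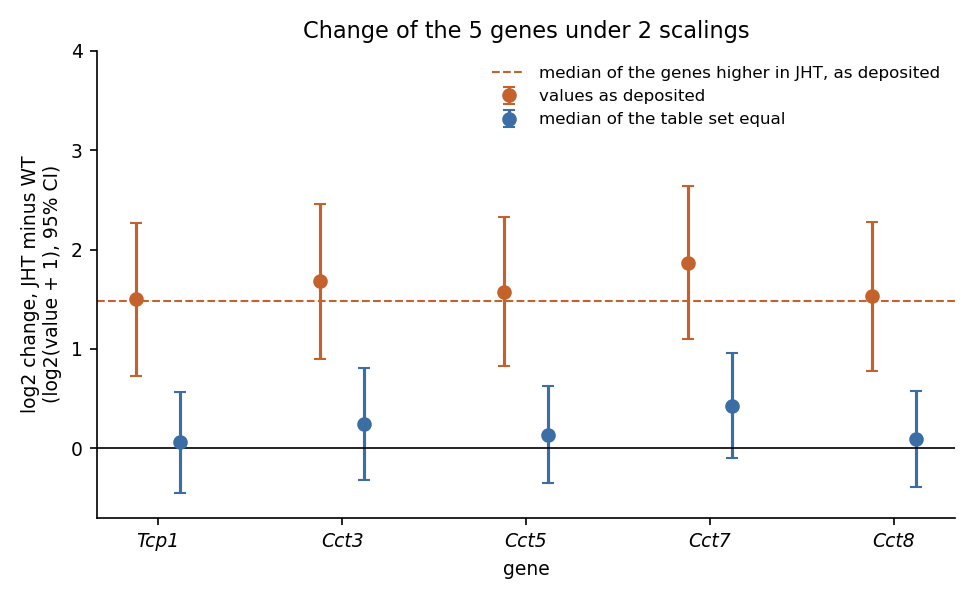
Log2 change of the 5 genes, JHT minus WT on the log2(value + 1) scale, with 95% limma intervals, for the values as deposited (orange) and with the median of the table set equal in every library (blue). The orange points lie between 1.50 and 1.87, all above the dashed line at 1.48 for the median of the 983 higher genes, and the blue intervals all include 0.

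The 5 genes moved together within the groups as well. The deviation of a library from its group mean, on the log2(value + 1) scale, had a median over the 5 genes of -0.58 in WT-1, 0.35 in WT-2 and 0.23 in WT-3. In the JHT libraries it was -0.32, -0.16 and 0.56. The medians over the higher genes had the same sign and were smaller in size, at -0.37, 0.24 and 0.16 among the WT libraries and -0.16, -0.04 and 0.24 among the JHT libraries. Single subunit genes varied around this. In WT-1 the deviations of Cct5 (-0.22) and Cct8 (-0.34) were smaller in size than the median of the higher genes, as were those of Cct5 (0.19) and Cct8 (0.06) in WT-2 and of Cct3 (0.13) and Cct5 (0.03) in WT-3.

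JHT-3 was the highest JHT library in 5 of 5 subunit genes, against 645 of the 983 higher genes (65.6%). The deviations of the 5 genes there ranged from 0.48 (Cct3) to 0.60 (Cct5), above the interquartile range of the higher genes, which ran from 0.04 to 0.40. WT-1 was the lowest WT library in 5 of 5, against 647 of 983 (65.8%), and the interquartile range of the higher genes there ran from -0.63 to -0.04. Cct3 (-0.83) and Cct7 (-0.80) lay below that range, and Tcp1 (-0.58), Cct8 and Cct5 lay inside it. The values with and without these libraries bear on the size of the change. Without WT-1 the log2 change was smallest for Tcp1, at 1.21, and without both WT-1 and JHT-3, an alternative chosen after seeing the data, it was 1.02 for Cct3, 1.17 for Cct5, 1.18 for Cct7, 1.08 for Cct8 and 0.93 for Tcp1. All 5 genes still passed there, with a largest limma adjusted p of 0.00142, as did 924 of the 1000 genes tested.

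**Figure D3:**
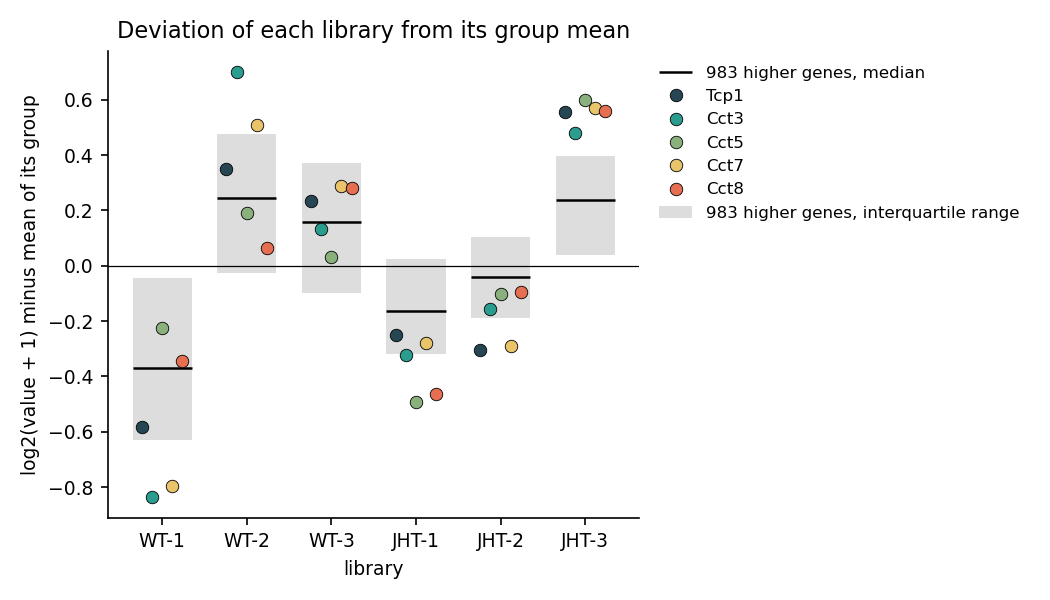
Deviation of each library from the mean of its group on the log2(value + 1) scale, for the 5 subunit genes (points) and for the 983 higher genes (line at the median, grey bar over the interquartile range). In JHT-3 all 5 points lie above the grey bar, between 0.48 and 0.60, and in WT-1 they lie below 0.

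The proportions of the subunit transcripts to each other were compared within libraries, because such ratios need no scaling between libraries. The values of the 5 genes summed to 196.4, 330.6 and 309.2 among the WT libraries and to 634.5, 739.3 and 1231.3 among the JHT libraries. Each gene's share of that sum overlapped between the groups. Cct8 held 30.7% ± 3.9 of the sum in WT mice and 29.0% ± 1.5 in JHT mice, and Cct5 held 28.1% ± 4.3 and 27.4% ± 1.7. Tcp1 held 16.9% ± 1.3 and 15.9% ± 1.5, Cct7 held 14.9% ± 3.0 and 17.8% ± 1.4, and Cct3 held 9.39% ± 2.80 and 9.85% ± 0.51 (SD, n = 3 each). The shares of Cct3, Cct5, Cct7 and Cct8 were spread more widely in the WT libraries, where Cct3 was at 6.89% and Cct7 at 11.5% of the sum in WT-1.

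**Figure D4:**
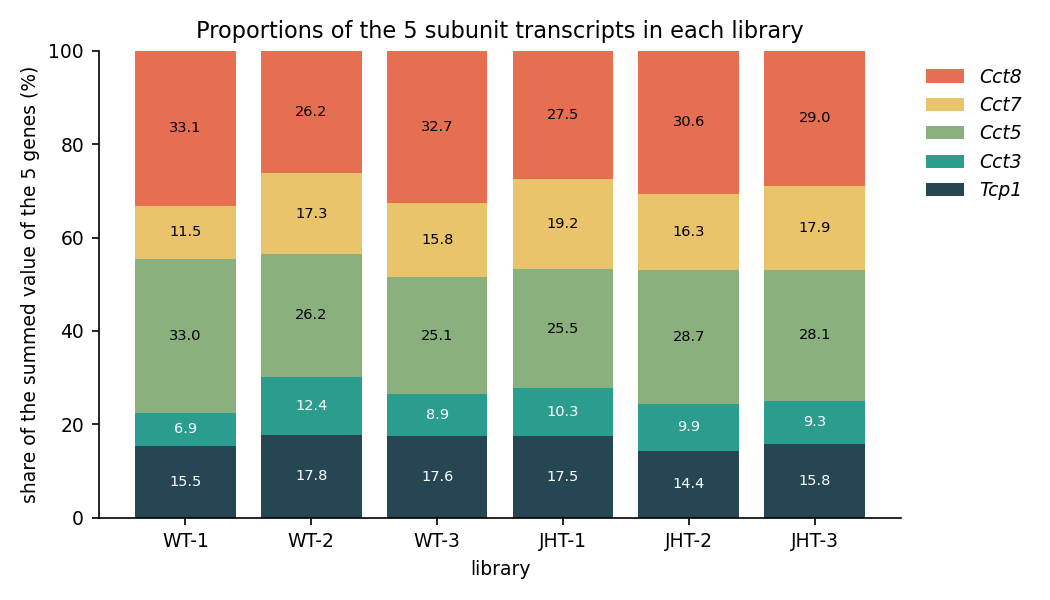
Share of each gene in the summed value of the 5 genes (y axis, percent) in each library. Cct8 and Cct5 together hold more than any other pair in every library, and the JHT libraries resemble each other more closely than the WT libraries, with Cct3 between 9.30% and 10.3% in JHT and between 6.89% and 12.4% in WT.

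Among the 10 pairs of subunit genes, 1 had a ratio that did not overlap between the groups. The background was 16.3% of 471906 pairs of higher genes with a positive value in every library. The subunit pair was Cct7 and Tcp1. The log2 ratio of Cct7 to Tcp1 was -0.43, -0.04 and -0.15 among the WT libraries and 0.14, 0.18 and 0.18 among the JHT libraries. Cct7 was thus below Tcp1 in each WT library and above it in each JHT library. The difference of the mean log2 ratios was 0.37, from -0.21 ± 0.20 to 0.17 ± 0.03 (SD, n = 3 each; exact permutation test, two-sided p = 0.1, the smallest possible). The share of non-overlapping pairs, 1 of 10, was not above the background. The count was 4 without WT-2, 2 without WT-3 or without JHT-2, and 1 without any 1 of the other libraries. Leaving out a library can only keep or raise this count. The background share was computed with all 6 libraries only, so it cannot be set against these counts.

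The ratios of the other 9 pairs overlapped between the groups. The smallest difference was 0.02, for Cct8 and Tcp1, whose log2 ratio was 0.85 ± 0.27 in WT and 0.87 ± 0.21 in JHT mice. Cct5 and Cct8 were close to equal in most libraries, with log2 ratios of -0.01, 0.00 and -0.38 among the WT libraries and -0.11, -0.09 and -0.05 among the JHT libraries. The median size of the difference over the 10 pairs was 0.18 on the log2 scale. Over the background pairs of higher genes it was 0.44, and 22.3% of those pairs differed by no more than the subunit median. The background pairs were not matched for level. The median of the mean values was 98.6 over the 5 subunit genes and 20.2 over the higher genes. Whether the smaller difference goes beyond that of genes of like level was not tested.

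The order of levels, on the deposited values taken as length-scaled, was Cct8, Cct5, then Cct7 and Tcp1, then Cct3. Cct8 was above Cct5 in 2 of 3 WT and in 3 of 3 JHT libraries, by a mean log2 ratio of 0.13 ± 0.22 in WT, so these neighbours did not differ beyond their spread in WT mice. Cct5 was above Cct7 in all 6 libraries, by 0.93 ± 0.52 in WT and 0.62 ± 0.21 in JHT mice. Tcp1 was above Cct3 in all 6 libraries, by 0.89 ± 0.33 in WT and 0.69 ± 0.13 in JHT mice.

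The values of 3 subunit genes may include reads of neighbours. In the annotation, Cct7 overlaps Pradc1 by 457 bases, Cct8 overlaps Usp16 by 192 bases, and Tcp1 overlaps Acat3 by 1255 and Mrpl18 by 645 bases, all on the opposite strand. Stretches of 75 bases that also occur in a transcript of another gene, on either strand, made up 5.96% of the Cct7 transcript, 5.09% of Cct8 and 21.1% of Tcp1, and 0% of Cct3 and Cct5. How the reads were assigned by strand is not given in the sources used here, and reads from such stretches cannot be told apart here. The small nucleolar RNA genes Snora20 and Gm26130 also lie within Tcp1, on the same strand. The overlapping genes Pradc1, Usp16, Acat3, Mrpl18 and Snora20 have no value in the table.

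Genes for proteins that CCT folds were counted next. Of 15 actin and tubulin genes listed, 8 were in the table. All 8 were higher in JHT mice, as were 96.6% of the table, and their median fold was 2.95 against 2.93 over the higher genes. Actg1, the cytoplasmic gamma-actin gene, had values of 350.2, 645.6 and 546.1 among the WT libraries and 1297.3, 1347.3 and 1791.9 among the JHT libraries. Its mean rose 2.88-fold, with a limma log2 change of 1.55 ± 0.33 (SE; adjusted p = 1.19e-05). The alpha-tubulin gene Tuba1b rose 3.02-fold, from 261.9 ± 79.7 to 791.4 ± 234.6, and Tuba1a rose 3.31-fold, from 93.5 ± 42.4 to 309.2 ± 71.5. The beta-tubulin gene Tubb4b rose 2.80-fold, from 94.3 ± 41.7 to 263.6 ± 70.8 (SD, n = 3 each). Actin and tubulin paralogs are close in sequence, and how reads common to several were assigned is not given in the sources used here, so the split between them is uncertain.

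With the equal median, 6 of the 8 cytoskeletal genes had a value above 0, against 543 of the 983 higher genes, and 1 passed as higher, against 2.06% of the table. This gene was Tubg1, gamma-tubulin, which nucleates microtubules at the centrosome and was named after its values were seen. Its values were 3.63, 4.86 and 8.04 among the WT libraries and 26.8, 39.8 and 39.4 among the JHT libraries, a 6.41-fold difference of the means. Its log2 change with the equal median was 1.08 (limma adjusted p = 0.0393). Tubulin is passed from CCT to a set of folding cofactors, and of 6 such genes listed Tbcc was in the table, at 12.4 ± 6.3 in WT and 40.9 ± 6.3 in JHT mice (3.28-fold). None of 10 listed genes of prefoldin and the phosducin-like proteins, which hand clients to CCT or work with it, was in the table.

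Of 13 WD-repeat and cell cycle clients listed, 4 were in the table. All 4 were higher in JHT mice, against 96.6% of the table, with a median fold of 3.73 against 2.93 over the higher genes. Ccne1, which encodes cyclin E and drives entry into S phase, rose 5.77-fold, with values of 7.59, 2.61 and 8.51 among the WT libraries and 26.2, 29.2 and 52.5 among the JHT libraries. Cdc20, which CCT folds and which activates the anaphase-promoting complex, rose 4.52-fold, from 11.4 ± 4.5 to 51.6 ± 12.1. The other activator of that complex, Fzr1, rose 2.94-fold, from 4.84 ± 1.91 to 14.2 ± 2.8, and Gnb1, a G protein beta subunit, rose 2.62-fold, from 29.9 ± 9.4 to 78.1 ± 16.3 (SD, n = 3 each). With the equal median, Ccne1 and Cdc20 had values above 0 and Fzr1 and Gnb1 below 0, and none of the 4 passed.

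Of 20 genes of the cytosolic HSP70, HSP90 and HSP40 systems listed, 9 were in the table. All 9 were higher in JHT mice, as were 96.6% of the table, with folds from 2.08 (Dnajc7) to 4.60 (Stip1) and a median of 2.78 against 2.93 over the higher genes. Stip1, which links HSP70 to HSP90 and was named after its values were seen, was at 10.5 ± 1.5 in WT and 48.2 ± 20.3 in JHT mice (SD, n = 3 each). Hspa8, the constitutive HSP70 of the cytosol, rose 2.46-fold, from 222.2 ± 35.9 to 546.5 ± 103.4. Hsp90aa1 rose 2.12-fold, from 92.2 ± 9.4 to 195.0 ± 31.8, and its paralog Hsp90ab1 rose 2.95-fold, from 55.0 ± 21.9 to 162.5 ± 44.8 (SD, n = 3 each). These HSP90 genes were lowest in JHT-3 of the JHT libraries, at 167.0 and 129.8, as was Fkbp4 at 20.7. In that library all 5 subunit genes were highest, and so were Hspa8, Hspa14, Dnajc7, Stip1 and Ahsa1 of this list. Cdc37 was highest in JHT-2. Ahsa1, an activator of the HSP90 ATPase, rose 3.12-fold, from 24.2 ± 14.9 to 75.4 ± 11.8. With the equal median, 4 of the 9 genes had a value above 0 and 5 below, and none passed.

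The chaperonin of mitochondria, a relative of CCT in structure, was also represented. Of 6 genes of that group listed, 2 were in the table. Hspd1, which encodes the mitochondrial chaperonin HSP60, had values of 11.8, 19.4 and 18.4 among the WT libraries and 50.1, 54.5 and 44.5 among the JHT libraries (3.01-fold). Trap1, the HSP90 of mitochondria, rose 3.26-fold, from 5.68 ± 0.53 to 18.5 ± 5.1 (SD, n = 3 in both groups). The R2TP complex is an assembly factor that works with HSP90, and Ruvbl1 was in the table out of 5 genes listed for it. None of 3 listed genes of the chaperonin-like BBS proteins and none of 5 listed regulators (Hsf1, Hsf2, Myc, Mycn and Max) was in the table.

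**Figure D5:**
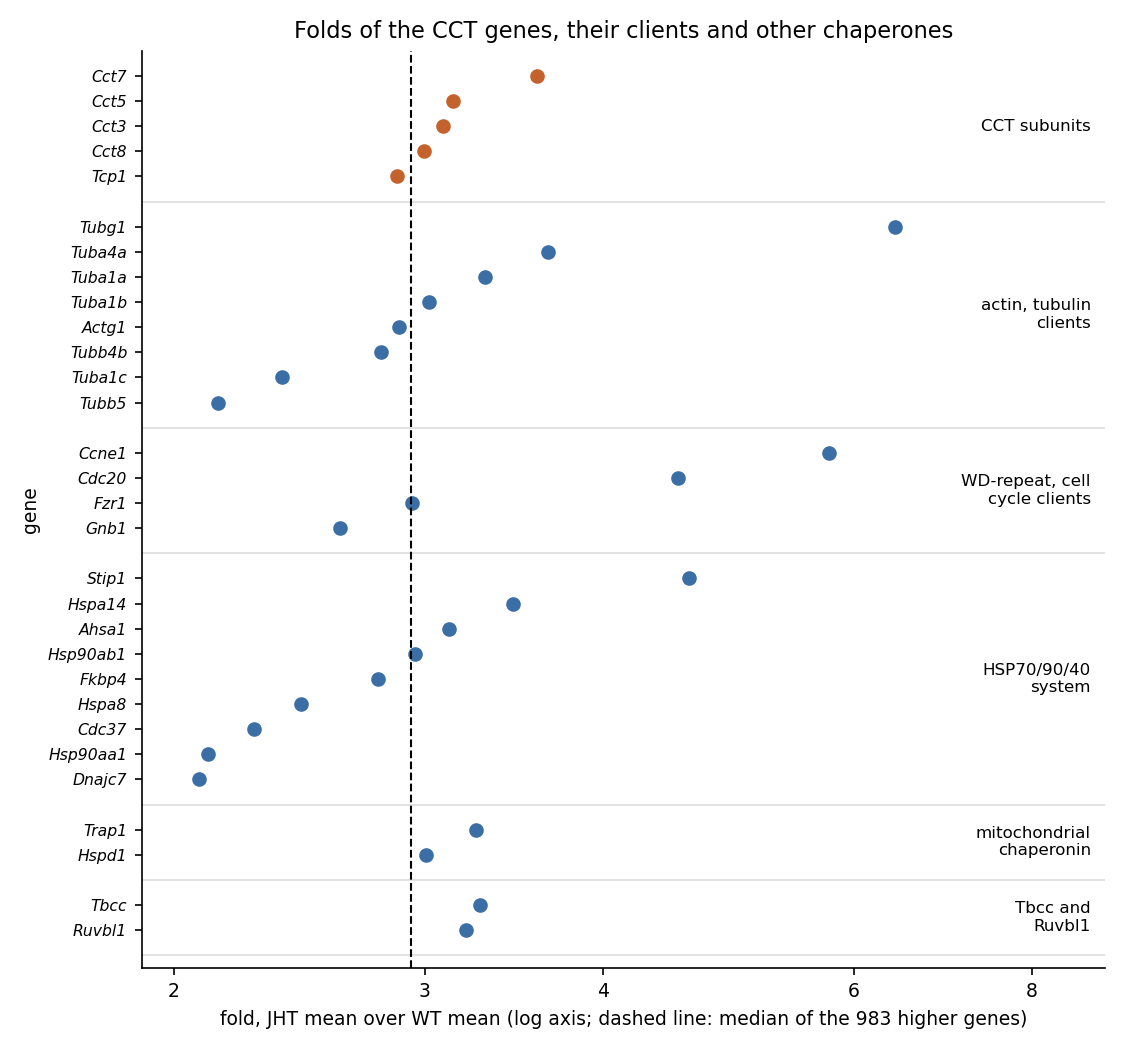
Fold of the JHT mean over the WT mean (x axis, logarithmic) for the 5 CCT subunit genes (orange) and for the listed client and chaperone genes of the table (blue), grouped from top to bottom as labelled. The dashed line marks the median fold of 2.93 of the 983 higher genes, and the subunit genes lie near it, between 2.87 and 3.60, while Tubg1 (6.41) and Ccne1 (5.77) lie farthest to the right.

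The genes whose pattern over the 6 libraries was most like the average of the subunit genes were ranked by the root mean square distance between mean-centred log2(value + 1) profiles. Ruvbl1 was nearest, at a distance of 0.046, with values of 6.60, 14.9 and 12.4 among the WT libraries and 26.2, 30.7 and 51.6 among the JHT libraries. It followed the order of the subunit average in all 6 libraries, with WT-1 lowest and JHT-3 highest, and so did the genes that came next. Acsl5 (0.074), Mcrs1 (0.085), Gltp (0.091) and Fam136a (0.091) came next, with folds of 3.16, 3.26, 3.07 and 2.97. The subunit genes themselves lay at 0.095 (Tcp1), 0.172 (Cct8), 0.177 (Cct7), 0.181 (Cct5) and 0.185 (Cct3), against a median of 0.394 over the other genes. Each subunit gene is part of the average it is measured against, which makes its distance smaller by construction. There were 60 other genes nearer to the average than Cct3. These distances are descriptions over 6 libraries, and all genes of a library share its depth and scaling.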

How the data were processed

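RNA from sorted M45 tetramer+ CD8+ T cells was amplified as full-length cDNA with a SMART-Seq kit, made into libraries with Nextera XT and sequenced in pairs on a NovaSeq instrument. After adaptor trimming, the authors ran CLC Genomics Workbench on GRCm38 with its default RNA-Seq settings. The sources used here do not name the annotation. Each gene of the deposited table had an expression signal in each library, which the authors scaled for length and library. Its 6 columns of the authors' own comparison (difference, fold change, p-values, log2 fold change and −log10 p) were not used.

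Groups were taken from the sample titles. The study gives 3 control and 3 JHT mice for these data, and the sample labels name no animals. Values were tested as log2(value + 1) in limma (3.58.1, R 4.3.3) under a variance trend and no covariate, for genes at 1 or more in 3 or more libraries, with Benjamini-Hochberg adjustment over the 1018 genes at 0.05. The log2(value + 1) scale understates the change of low genes. Folds are ratios of group means. Whole reads were recovered from within-gene ratios for 1018 of 1018 genes (tolerance 0.001). They served only to describe counting error and the read numbers of the libraries. The smallest whole numbers that fitted were taken, so the true reads of a gene can be higher. The reads in the table (1909193 to 5742545 per library) are not library totals. The methods give only a rounded target depth common to all samples, and the totals of single libraries are not given in the sources used here. Recovered reads per unit of value were 1.00 to 1.43 relative to WT-1. Coordinates are 1-based. The test was tried on simulated data.

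The members and gene lists were chosen with earlier results of these data known. Named genes were the 5 members, up to 4 genes per list by largest mean value, and the 5 genes nearest to the average profile of the members. Alternatives were another pseudocount (0.1), no filter, no trend, equal median, quantile normalization, each library left out and a replicate block.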

Additional observations from a re-analysis of the deposited data

How the results depend on the processing

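All 5 subunit genes stayed higher under every alternative run, and their calls were lost only with the rescalings. With the equal median the log2 changes were 0.24 (Cct3), 0.14 (Cct5), 0.43 (Cct7), 0.092 (Cct8) and 0.061 (Tcp1), and with quantile normalization 0.34, 0.21, 0.53, 0.22 and 0.17 in the same order (limma adjusted p between 0.442 and 0.846). Both take away a shared rise by construction. The number of genes passing was 1018, and 56 with the equal median (21 higher, 35 lower), 60 with quantile normalization (26 higher, 34 lower) and 924 without both WT-1 and JHT-3. With 1 library left out it ran from 956 to 1010, and the members' log2 changes ran from 1.26 to 2.03 (Cct3), 1.28 to 1.82 (Cct5), 1.47 to 2.12 (Cct7), 1.25 to 1.76 (Cct8) and 1.21 to 1.67 (Tcp1). The number of non-overlapping subunit pairs ran from 1 to 4, with 4 of 10 without WT-2. Leaving out a library can only keep or raise that number, and no background share was computed for it.

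Correlations of deviations were 0.168, 0.030 and 0.107 for same-numbered libraries and between -0.133 and 0.031 for the others. All were small, and the main fit did not treat the numbers as pairs. With a replicate block 1018 genes passed, and the members' limma adjusted p was at most 7.53e-06. For 21 other named genes, 233 of 273 values kept their direction and side of the threshold, 34 lost the call and 6 reversed. The reversed log2 changes were Gnb1 -0.057, Fzr1 -0.016, Hspa8 -0.15 and Hsp90aa1 -0.37 with the equal median, and Hspa8 -0.10 and Hsp90aa1 -0.24 with quantile normalization. Without JHT-1, Hsp90aa1 no longer passed (0.94, limma adjusted p = 0.0512). Counting error was small beside the spread between libraries (95% interval at most -8.16% to 8.69% of a member's reads).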
